A study of Mus musculus with 3 samples.

Results

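γδ T cells of the mouse liver were taken from single-cell transcriptomes of liver non-parenchymal cells by the transcripts of their receptor. They were chosen by unique molecular identifier (UMI) counts in each cell. A cell needed at least 1 UMI of Cd3d, Cd3e and Cd3g together and at least 1 UMI of Trdc, the constant gene of the δ chain. It could have no UMI of Trac (the α chain constant gene), of Cd8a or Cd8b1, of Foxp3 (regulatory T cells), of Ncr1 (NK cells) or of Cd79a (B cells), and at most 2 UMIs of Clec4f and Vsig4 (Kupffer cells) together. This gave 97 cells in the non-HFHC library and 63 in the HFHC pool, in all 160 of the 42971 cells kept from 52335. The values of these genes in the members therefore describe the choice and are no finding.

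The non-HFHC library was described in the methods as coming from wild-type C57BL/6J mice on a normal chow diet (NCD), whereas its sample title read MCD and its file header named the library APAP0h, so that its diet was not settled here. The HFHC pool held cells of WT and Chi3l1-/- mice, both on a C57BL/6J background and both kept for 16 weeks on the HFHC diet, rich in fat and cholesterol, with no genotype known for each cell. All livers were perfused and digested with collagenase before capture, and the number of mice per library was not given in the sources used here. With 1 library per group no test was possible, and diet, genotype, capture and library cannot be told apart. The intervals below are exact 95% intervals that cover counting error only. Those of gene levels and of their ratios treat each UMI as independent. UMIs of 1 cell are not, so that these intervals are too narrow.

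γδ T cells carry a T cell receptor of a γ and a δ chain and respond without classical MHC presentation. In mice they are commonly divided into a type 17 lineage, which makes IL-17 and uses the transcription factors SOX13 and MAF, and a type 1 lineage, which makes interferon γ and shares cytotoxic and NK receptor genes with NK cells. The liver holds both, and liver γδ T cells are mostly resident, while naive cells recirculate through blood and lymph nodes.

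The γ chain constant genes were not used in the choice and serve to check it. Murine Tcrg-V1 lies just upstream of Tcrg-C4 and is joined to it, and Tcrg-V4 and Tcrg-V6 lie upstream of Tcrg-C1 and are joined to that gene. These constant genes resemble each other, so that the first 120 bases of the first coding exon are shown for the 3 genes that had more than 1 UMI in the members. They were read from the GRCm38 genome with GENCODE M21 annotation at chr13:19214103-19214222 (+ strand) for Tcrg-C1, chr13:19307432-19307551 (- strand) for Tcrg-C2 and chr13:19344558-19344677 (+ strand) for Tcrg-C4. Capitals mark the 15 positions at which the 3 sequences are not all alike.
Tcrg-C1: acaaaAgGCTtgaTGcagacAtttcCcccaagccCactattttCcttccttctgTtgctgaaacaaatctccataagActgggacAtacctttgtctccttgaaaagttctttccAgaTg
Tcrg-C2: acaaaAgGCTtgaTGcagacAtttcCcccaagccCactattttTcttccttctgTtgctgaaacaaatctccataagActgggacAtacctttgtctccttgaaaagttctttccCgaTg
Tcrg-C4: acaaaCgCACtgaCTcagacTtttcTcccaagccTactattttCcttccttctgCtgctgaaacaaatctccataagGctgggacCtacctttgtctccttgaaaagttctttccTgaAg
In this window Tcrg-C2 differed from Tcrg-C1 at 2 positions and Tcrg-C4 differed from Tcrg-C1 at 14. Over the whole exon of 330 bases, Tcrg-C1 was 97.3% identical to Tcrg-C2 and 82.1% to Tcrg-C4. In the last 300 bases of the transcripts, where reads of a poly(A)-primed library fall, identity was 91.4% with a longest shared run of 104 bases for Tcrg-C1 and Tcrg-C2. For Tcrg-C1 and Tcrg-C4 it was 53.1% with a longest shared run of 9 bases. Reads could thus be told apart well between Tcrg-C1 and Tcrg-C4, and less surely between Tcrg-C1 and Tcrg-C2, whose split is uncertain.

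Nearly all members carried a γ chain. At least 1 UMI of Tcrg-C1 to Tcrg-C4 was found in 87 of 97 members of the non-HFHC library (89.7%, 81.9 to 94.9%) and in 61 of 63 of the HFHC pool (96.8%, 89.0 to 99.6%). The same share was 51.6% and 40.4% in αβ T cells without Cd8 (the same rule with Trac in place of Trdc). It was 13.77% and 18.01% in αβ T cells with Cd8, and 1.28% and 1.79% in Cd79a-positive B cells. γ chain transcripts were thus common in αβ T cells without Cd8, but less so in those with Cd8. Per cell, Trdc had a lowest, median and highest UMI count of 1, 4 and 23 in the non-HFHC library and of 1, 8 and 31 in the pool. The members of the pool held more UMIs, with a median of 3681 UMIs and 1528 genes against 1805 UMIs and 1067 genes, and their median mitochondrial share was 9.19% against 7.47%. Scaled to counts per 1e6 of the members' summed UMIs (CPM), Trdc stood at 2399 and 2410.

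**Figure D1:**
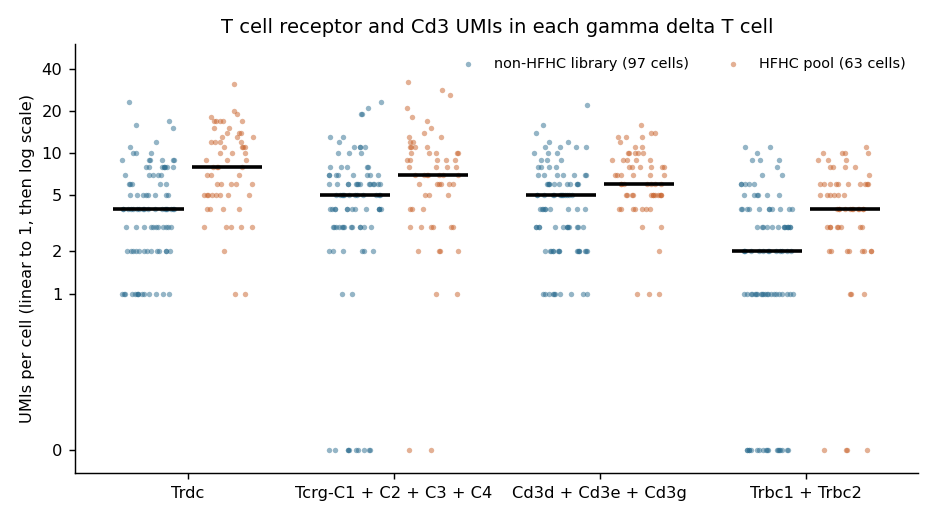
UMIs per cell of the δ chain, the γ chain constant genes, the Cd3 genes and the β chain constant genes; each point is 1 γδ T cell, blue for the 97 of the non-HFHC library and orange for the 63 of the HFHC pool, and the black bars are medians. The y axis is linear to 1 and logarithmic above, and 10 and 2 members lie at 0 for the γ chain.

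The edges of the rule differed between the libraries. Only 1 Trdc UMI was seen in 14 and 2 members, and of these 50% and 0% had a γ chain UMI. With 2 or more Trdc UMIs, 96.4% and 100% did. Just outside the rule, 38 and 60 cells met all conditions but had a Trac UMI, and in 21 and 42 of them Trdc exceeded Trac.

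The β chain, like the γ chain, was not part of the rule. Trbc1 and Trbc2 together stood at 1336 CPM (1182 to 1504) in the members of the non-HFHC library and at 1199 CPM (1066 to 1344) in the pool members. These were below the αβ T cells, at 2739 and 2501 CPM, and above NK cells (Ncr1-positive, Cd3-negative), at 791 and 838 CPM, and B cells, at 29.8 and 37.8 CPM. The members lay between both kinds of lymphocyte, and 18 of 97 and 4 of 63 had no β chain UMI. Cd4, a coreceptor of αβ T cells, had 2 and 0 UMIs in all members together against 333 and 367 CPM in αβ T cells. Trdc itself was found in 11.2% and 16.6% of the NK cells. How many members were αβ T cells whose Trac was missed, or NK cells whose Ncr1 was missed, was not tested.

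γδ T cells were a small share of the T cells. They made up 0.415% (0.337 to 0.507%) of the kept cells of the non-HFHC library and 0.321% (0.247 to 0.411%) of the pool. Of Cd3-positive cells they were 2.69% (2.18 to 3.27%) of 3609 and 2.02% (1.56 to 2.58%) of 3113. Here and below, Cd3-positive cells are kept cells with at least 1 Cd3 UMI, no Cd79a UMI and at most 2 UMIs of Clec4f and Vsig4 together. The intervals of the libraries overlapped. The order of the libraries turned once Trac was treated otherwise: with more Trdc than Trac UMIs in place of no Trac UMI, 118 and 105 cells were counted, 3.27% (2.71 to 3.90%) and 3.37% (2.77 to 4.07%) of Cd3-positive cells. After each Cd3-positive cell was thinned to 1000 UMIs, the original rule took 89 of 3149 cells (2.83%, 2.28 to 3.47%) and 81 of 2966 (2.73%, 2.17 to 3.38%). At equal depth each share thus lay inside the interval of the other, and no difference in the abundance of γδ T cells was detectable.

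Some members carried UMIs of other liver cells. The hepatocyte list (16 genes such as Alb and Apoa1) had a median of 1 UMI per member in both libraries. It reached 20 UMIs or more in 7 members of the non-HFHC library, which held 79.9% of its UMIs, and in 9 of the pool, which held 91.1%. Scrublet, which scores cells for likeness to simulated doublets, marked 15 and 6 members as doublets, among them 7 of those 7 and 6 of those 9. The antigen presentation genes Cst3, H2-Aa, H2-Ab1 and Cd74, chosen after their values were seen, had 876 of 1003 UMIs in 2 members of the non-HFHC library and 817 of 926 in 1 member of the pool, none marked as a doublet. Of 9 B cell genes, 6 and 5 were at 0, among them Cd79a by the rule and Ebf1 and Jchain, and the Kupffer cell list never passed 9 and 26 UMIs in a member. Summed over the members these lists stood at 3559 and 3560 CPM for hepatocytes, 346 and 245 for Kupffer cells, 1282 and 567 for endothelial cells and 2847 and 2059 for neutrophils and monocytes. Without Ccr2 and Ly6c2, which T cells also express, the last were 1624 and 530 CPM. The list of NK cells and innate lymphoid cells, which shares genes with γδ T cells, stood at 3267 and 2602 CPM, above the 1636 and 1684 CPM of αβ T cells, with a median of 5 and 9 UMIs per member. Of its 13 genes, 3 and 2 were at 0, Ncr1 by the rule. The libraries shared 756 cell indexes, none of them between members.

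The γ and δ variable genes were seen in a minority of cells. Tcrg-V1 had 28 UMIs in 20 of 97 members and 33 UMIs in 23 of 63, or 137 and 135 CPM, against 22.2 and 18.7 CPM in αβ T cells. Tcrg-V4 had 1 UMI in the non-HFHC library and 9 UMIs in 6 members of the pool. Tcrg-V6, found in type 17 γδ T cells of many tissues, had 0 and 5 UMIs in 0 and 4 members. Its usual partner Trdv4 had 2 UMIs in 2 members and 24 UMIs in 9. This gave 2.80 as the log2 ratio of pool to non-HFHC CPM (1.32 to 6.45), from fewer than the 30 UMIs required for the counts of genes. Trdv4 was not particular to the members: it was found in 5.04% and 13.5% of NK cells, against 2.06% and 14.3% of members. Trdv2-2 was likewise found in 4.26% and 6.44% of NK cells. Of the other δ variable genes, Trdv2-2 and Trdv5 had 2 and 1 UMIs in the non-HFHC library and none in the pool, and Trdv1 had 0 and 3. These were too few to give the repertoire. Trdc (chr14:54142851-54148868) and Trdv4 (chr14:54074905-54075515) lie on the + strand, within the same locus as Trac.

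The members were assigned to a type 17 or a type 1 set by their genes. Each member was thinned to 1000 UMIs, which left 90 and 62, and was assigned to the list (25 type 17 genes in the tables, 29 type 1 genes) of which it had more UMIs, with at least 2. Type 17 members numbered 13 of 90 in the non-HFHC library (14.4%, 7.9 to 23.4%) and 18 of 62 in the pool (29.0%, 18.2 to 41.9%). Type 1 members numbered 74 (82.2%, 72.7 to 89.5%) and 43 (69.4%, 56.3 to 80.4%), and 3 and 1 were neither. The intervals of the libraries overlapped for both. The median type 17 member had 14 UMIs of its own list and 0 of the other in either library, and the median type 1 member had 14 of its own and 2 of the other. The sets were not cleanly apart: within 1 UMI of the cut lay 7 and 1 members. At least 5 UMIs of both lists, a limit chosen after the values were seen, were found in 19 of 90 and 7 of 62. Of these members, 17 and 6 were type 1 and 0 and 1 were type 17, so that the overlap lay mostly on the type 1 side. In αβ T cells without Cd8 the type 17 share was 15.1% (13.6 to 16.7%) and 28.5% (26.0 to 31.2%), a similar pair of values. B cells gave 22.0% and 18.3% for type 17 and 13.2% and 12.0% for type 1, so that the assignment alone does not show a program. The type 17 list holds Blk, which B cells express, so that they are no empty control for it.

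**Figure D2:**
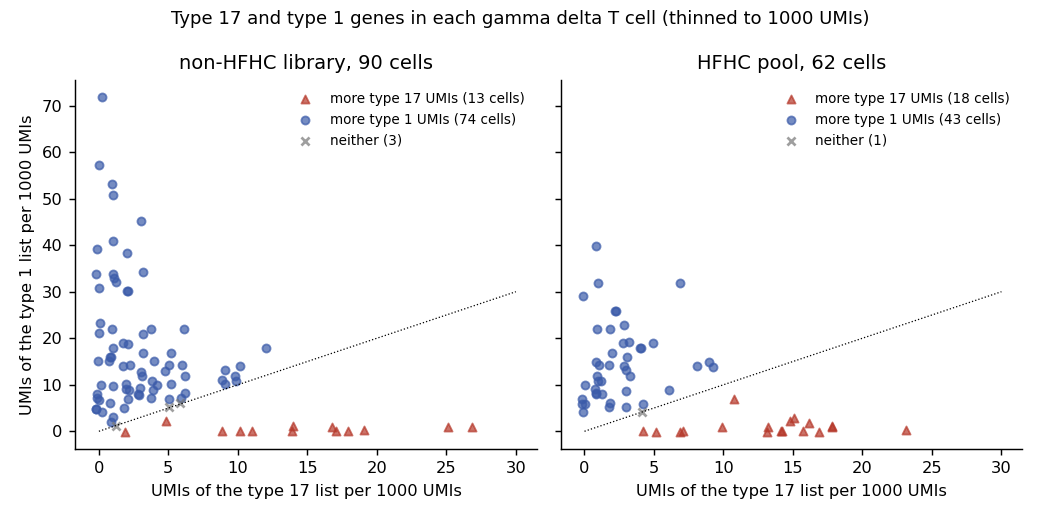
UMIs of the type 17 list (x axis) and of the type 1 list (y axis) in each γδ T cell thinned to 1000 UMIs, left for the non-HFHC library and right for the HFHC pool; the dotted line marks equal counts. The 13 and 18 cells assigned to type 17 (triangles) lie along the x axis, apart from the 74 and 43 type 1 cells (circles), but 19 and 7 cells have at least 5 UMIs of both lists.

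Genes of the lists showed what the sets contained, as a description of the assignment. In type 17 members Sox13, which specifies this lineage, stood at 564 CPM (300 to 965) in the non-HFHC library and 501 CPM (349 to 697) in the pool, with 0 UMIs in type 1 members of either. Blk, a kinase of B cells that IL-17-producing γδ T cells also need, stood at 608 and 644 CPM, again with 0 UMIs in type 1 members. The scavenger receptor gene Cd163l1 (Scart1) stood at 695 and 988 CPM in type 17 members, against 2 and 0 UMIs in type 1 members. Il17a itself had 2 UMIs in 2 cells and 4 UMIs in 2 cells, all of type 17 members, and Il17f had none, so that the cells carried the lineage genes with almost no cytokine transcript. Il23r, the receptor chain for IL-23, was likewise sparse (8 and 10 UMIs). Type 1 members carried Ccl5, a T cell attracting chemokine, at 4150 CPM (3847 to 4471) and 5830 CPM (5475 to 6201), against 0 and 7 UMIs in type 17 members. The β chain of the IL-2 and IL-15 receptors, Il2rb, stood at 1931 and 1186 CPM in type 1 members and at 174 and 172 CPM in type 17 members.

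Receptor usage, which the lists did not use, was set beside the sets. Tcrg-C1 made up 61.1% (48.9 to 72.4%) of the UMIs of Tcrg-C1, Tcrg-C2 and Tcrg-C4 in type 17 members of the non-HFHC library and 62.3% (55.0 to 69.2%) in those of the pool. In type 1 members it made up 33.6% (29.1 to 38.2%) and 26.6% (22.0 to 31.7%). The intervals did not overlap within either library, but this share rests on the uncertain split of Tcrg-C1 and Tcrg-C2. Tcrg-C4, which could be told apart better, made up 27.8% (17.9 to 39.6%) in type 17 and 30.6% (26.3 to 35.1%) in type 1 members of the non-HFHC library, with overlapping intervals. In the pool it made up 13.6% (9.09 to 19.3%) and 29.3% (24.5 to 34.5%), with intervals apart. Intervals apart for the share that did not need the uncertain split were therefore seen in the pool only. These intervals count UMIs and not cells, and single pool members held up to 32 γ chain UMIs. Since UMIs of 1 cell are not independent, the intervals are too narrow. Whether the sets or the libraries differed in this was not tested. Trdv4 was found in 2 and 9 type 17 members and in no type 1 member, but also in 5.04% and 13.5% of NK cells. Tcrg-C4 made up 41.5% and 40.2% in members with a Tcrg-V1 UMI, the gene joined to it, against 30.2% and 23.7% over all members. Tcrg-V1, found in 2 of 13 and 5 of 18 type 17 members, was not restricted to 1 set. Trdc, which every member had by the rule, stood at 3082 and 2663 CPM in type 17 and 2327 and 2302 CPM in type 1 members.

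**Figure D3:**
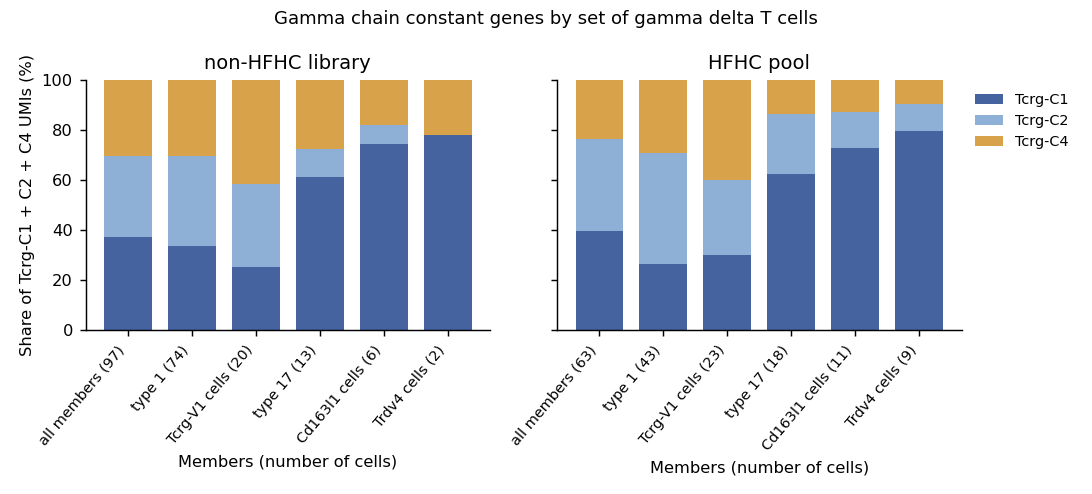
Share of Tcrg-C1, Tcrg-C2 and Tcrg-C4 among the UMIs of these γ chain constant genes (y axis, percent) in sets of γδ T cells (x axis, number of cells in brackets), left for the non-HFHC library and right for the HFHC pool. Tcrg-C1 (dark blue) is 61.1% and 62.3% in type 17 members and 33.6% and 26.6% in type 1 members, and Tcrg-C1 and Tcrg-C2 together are 72.2% and 86.4% against 69.4% and 70.7%.

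Cd163l1 was followed cell by cell. Of 11 members with it in the pool, 11 had UMIs of Il7r, Maf, Tmem176b and the residency receptor gene Cxcr6, 9 had Trdv4, and 0 had Ccl5. Over all 63 pool members, 53 had Il7r, 29 Maf, 23 Tmem176b, 37 Cxcr6 and 41 Ccl5. In the 11 with Cd163l1, Tcrg-C1 made up 72.7% (64.3 to 80.1%) of the γ chain UMIs. In the non-HFHC library there were 6 such cells, of which 6 had Il7r and Maf, 5 had Cxcr6, 4 had Tmem176b, 2 had Trdv4 and 2 had Ccl5. Of these 6, 4 were assigned to type 17 and 2 to type 1, with a Tcrg-C1 share of 74.4% (57.9 to 87.0%). The 9 pool members with Trdv4 were 9 of the 11 with Cd163l1. The related gene 5830411N06Rik (Scart2) was found in 6 and 2 members and in 0 of those with Cd163l1. With so few cells of each, hardly any shared cell would be found even if the genes were unlinked. The values thus cannot tell whether the genes exclude each other.

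γδ T cells were next compared with αβ T cells without Cd8 within each library, as a log2 ratio of CPM. Of 9127 genes tested, 217 (2.38%) were at least 2-fold higher in γδ T cells in both libraries and 57 (0.625%) at least 2-fold lower. Before each ratio 1 UMI was added to each sum, and the members' sums were much smaller than those of αβ T cells. For genes with few UMIs this raised the ratio, so that the higher and lower counts cannot be weighed against each other. Medians of these ratios were raised in the same way. With a minimum of UMIs in the members, fewer genes passed in each direction, as given below. By count, type 17 genes were the list with most higher genes, 7 of 15 tested, with medians of 1.18 and 1.31 against 0.17 and 0.06 over all genes. By share the γδ receptor genes came first, with 3 of 4, and the NK and innate lymphoid list had 3 of 9. Of type 1 genes 3 of 27 were higher (medians 0.99 and 0.30), and of CD3 complex and signalling genes 0 of 11, with Cd5 lower.

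Genes were ranked by the smaller of the ratios in the libraries. Blk came highest, at 3.59 and 4.26, followed by Tcrg-V1 at 2.66 and 2.87. Higher by the same ranking were Itgax, an integrin gene of dendritic cells, at 2.61 and 2.93, Mmp25 at 3.49 and 2.54, Scpep1 at 2.63 and 2.37 and the water and glycerol channel Aqp3 at 2.42 and 2.20. Aqp3 had 5 and 10 UMIs in the members, so that its levels of 24.4 and 40.8 CPM were loosely measured. Tcrg-C1 was 1.48 and 2.07 and Tcrg-C4 1.78 and 1.91 on this scale, less than Tcrg-V1. Naaa (1.99 and 2.59), Plbd1 (1.94 and 3.30) and Cst3 (1.90 and 2.61) also ranked high. In the pool these rested largely on 1 cell, the deepest member (14425 UMIs), which was rich in antigen presentation genes and held 246 of 293 Cst3, 17 of 25 Naaa, 23 of 31 Plbd1 and 8 of 16 Itgax UMIs. Without it Cst3 stood at 204 CPM in the pool members, near the 197 CPM of αβ T cells, and Naaa, Plbd1 and Itgax each at 34.7 CPM, against 17.4, 13.04 and 8.91 CPM in αβ T cells. In the non-HFHC library, single cells held 164 of 352 Cst3, 13 of 31 Naaa and 9 of 17 Plbd1 UMIs, and without the top cell of each gene these stood at 940, 90.1 and 40.01 CPM, against 460, 39.01 and 22.6 CPM in αβ T cells.

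Few genes of T cell signalling were lower in γδ T cells in both libraries. Cd5, a brake on T cell receptor signalling, had a log2 ratio of -2.18 and -2.12, with 9.75 and 36.7 CPM in the members and 66.3 and 177 CPM in αβ T cells. Trat1, an adaptor of the receptor complex, had -1.55 and -1.92, and the costimulatory receptor gene Cd28 had -0.77 and -1.06 and Icos -1.47 and -0.88, each short of 2-fold in 1 library. By contrast Lck (-0.27 and -0.45) was near the level of αβ T cells. Cd3d (0.10 and -0.17) and Cd3e (-0.12 and -0.10) were part of the choice of both kinds of cells, so that their levels are no finding.

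**Figure D4:**
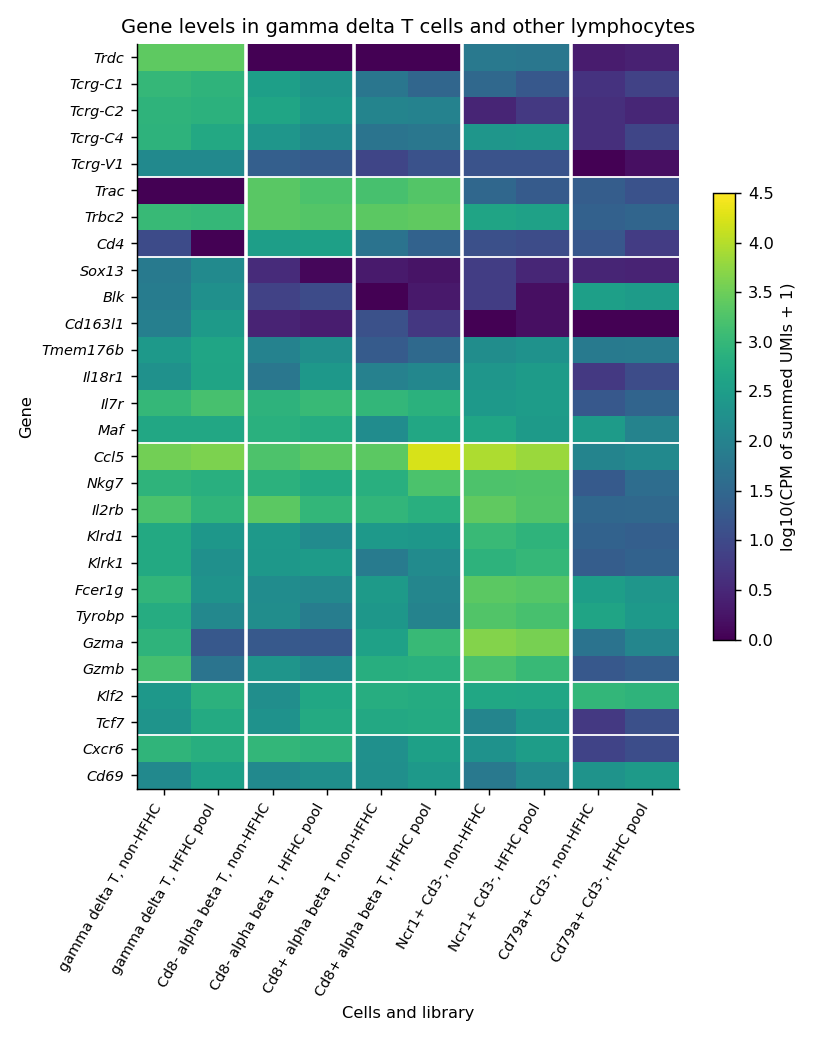
Levels of genes of the receptor and of the lists (y axis) in γδ T cells and in αβ T, Ncr1-positive and Cd79a-positive cells of each library (x axis), as log10 of CPM of summed UMIs plus 1 (colour). Blk, Sox13 and Cd163l1 are brighter in γδ T cells than in αβ T cells in both libraries, and Gzma and Gzmb are bright in γδ T cells of the non-HFHC library and dark in those of the HFHC pool.

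The members of the HFHC pool were then compared with those of the non-HFHC library. Of 2850 genes with at least 30 UMIs in both together, 185 (6.49%) were at least 2-fold higher in the pool and 191 (6.7%) at least 2-fold lower, with a median log2 ratio of -0.08. Centring on that median turned this split into 212 higher and 148 lower. Granzyme and several NK receptor genes were lower in the pool, some genes of recirculating cells and of the type 17 list were higher, and immediate early genes were higher in γδ T cells and in other lymphocytes alike.

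Gzma and Gzmb, which encode proteases of cytotoxic granules, were far lower in the pool. Gzmb stood at 1463 CPM in the non-HFHC library (300 UMIs in 35 of 97 members) and at 53.0 CPM in the pool (13 UMIs in 4 of 63), a log2 ratio of -4.68 (-5.71 to -3.99). Gzma stood at 839 CPM (172 UMIs in 11 members) and 16.3 CPM (4 UMIs in 3), a log2 ratio of -5.37 (-7.58 to -4.30). In αβ T cells without Cd8 the same ratios were -0.72 and -0.04, in those with Cd8 0.06 and 1.48, and in NK cells -0.59 and -0.29. The granzyme difference was thus much smaller, or of the other sign, in the other cytotoxic lymphocytes of the same libraries. No cell decided it, since the highest counts in a member of the non-HFHC library were 33 for Gzmb and 34 for Gzma. Without the cells marked as doublets Gzmb stood at 1756 and 41.8 CPM, and with more Trdc than Trac UMIs as the rule it stood at 1383 and 51.6 CPM.

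Of the 35 Gzmb-positive members of the non-HFHC library 26 had a Cxcr6 UMI, a share like that over all members (71 of 97). The adaptor gene Tyrobp (DAP12), which couples activating NK receptors, was found in 20 of them, and Gzma in 10. Perforin, Prf1, did not share the difference, at 48.8 and 61.2 CPM.

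Of the type 1 list, 9 of 24 genes tested were lower, Gzma and Gzmb among them, and 2 were higher, with a list median of -0.74. The same 24 genes had a median of -0.41 in αβ T cells without Cd8 and of 0.01 and 0.06 in αβ T cells with Cd8 and in NK cells. Tyrobp stood at 600 and 126 CPM (-2.21, -2.86 to -1.67) and Fcer1g, the other adaptor of this kind, at 902 and 204 CPM (-2.12, -2.63 to -1.69). Both are also expressed by myeloid cells, and without the cells marked as doublets Tyrobp stood at 530 and 144 CPM and Fcer1g at 973 and 204 CPM. In the 18 and 4 members with no β chain UMI the ratio of Tyrobp was -0.12 and that of Fcer1g 1.04. Of those 4 pool members, 2 had 1 Trdc UMI and no γ chain UMI, and 1 of these 2 held 101 of the 116 UMIs of the myeloid gene Lyz2 in the pool members. The NK receptor genes Klrk1 (NKG2D), at 536 and 184 CPM, Klre1, at 366 and 130 CPM, and Klrd1 (CD94), at 551 and 237 CPM, had ratios of -1.53, -1.46 and -1.21, against 0.19, -0.08 and -0.88 in αβ T cells. Klrc2 (-1.34) and Fasl (-1.04) completed the lower genes. The genes of the list did not all move this way. Ccl5, at 3437 and 4151 CPM (0.27, 0.13 to 0.41), and Nkg7, at 853 and 701 CPM (-0.28, -0.59 to 0.03), were nearly level. Ly6c2, at 473 and 1085 CPM (1.19, 0.86 to 1.55), and the chemokine gene Ccl4, at 58.5 and 151 CPM (1.29, 0.40 to 2.44), were higher in the pool, with 17 of the 37 pool UMIs of Ccl4 in 1 cell. Ifng had only 5 and 12 UMIs.

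Genes of naive and recirculating T cells were higher in the pool, 3 of 7 tested against 1 lower, with a median of 0.90. Klf2, a transcription factor that keeps T cells quiescent and recirculating, stood at 254 and 767 CPM (1.58, 1.15 to 2.07), and Tcf7 at 210 and 567 CPM (1.41, 0.93 to 1.96). These were higher in αβ T cells too, by 1.49 and 1.54. Ccr7, which guides cells to lymph nodes, had 2 and 20 UMIs (2.55, 1.02 to 6.21, also under 30 UMIs), S1pr1 a ratio of 0.90 and Lef1 of 0.13, and Igfbp4 was lower (-1.02). By cells thinned to 1000 UMIs, 27.8% (18.9 to 38.2%) and 58.1% (44.8 to 70.5%) of members had at least 2 UMIs of this list, against 33.3% and 49.3% in αβ T cells without Cd8. A higher share in the pool was not seen in αβ T cells with Cd8 (74.2% and 47.3%), NK cells (47.6% and 47.3%) or B cells (76.8% and 67.8%). Over the same 7 genes the median was 0.77 in αβ T cells without Cd8. It was -0.31 in those with Cd8, -0.17 in NK cells and -0.26 in B cells.

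Tissue residency genes did not form 1 direction, with 4 higher and 2 lower of 11 tested and a median of -0.42. Cd69, an early activation gene that retains cells in tissue, stood at 137 and 363 CPM (1.38, 0.78 to 2.08), against 0.33 in αβ T cells, and Rgs1, Rgs2 and Cxcr4 were 1.05, 1.70 and 1.02. Cxcr6 was at 892 and 665 CPM (-0.42, -0.74 to -0.11), and the integrin genes Itga1 (CD49a, 249 and 106 CPM) and Itgal (882 and 436 CPM) were -1.20 and -1.01. The share of members with at least 2 UMIs of the residency list was 84.4% (75.3 to 91.2%) and 82.3% (70.5 to 90.8%).

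Type 17 genes were higher in the pool for 4 of 12 tested and lower for none, with a median of 0.62, against -0.08 for the same 12 genes in αβ T cells. Over all 19 genes of the list tested in αβ T cells, a wider set, their median was 0.83. Whether the list was particular to γδ T cells thus depends on the genes compared. Cd163l1 stood at 87.8 CPM (18 UMIs in 6 members) and 281 CPM (69 UMIs in 11), a ratio of 1.62 (0.92 to 2.52). Without the cells marked as doublets it stood at 43.1 and 320 CPM. Blk was at 78.0 and 184 CPM (1.18, 0.38 to 2.16), with 15 of 45 pool UMIs in 1 cell and a ratio of 0.90 without the cell with most UMIs in each library. Sox13 was at 68.3 and 143 CPM (1.01, 0.13 to 2.07), at the edge of 2-fold. Il18r1, the receptor chain for IL-18, was at 185 and 416 CPM (1.14, 0.62 to 1.74) and higher still in αβ T cells (2.05). Il7r, the receptor for the survival cytokine IL-7, was at 1000 and 1533 CPM (0.61, 0.37 to 0.87), and Maf was level (0.01, -0.38 to 0.40).

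**Figure D5:**
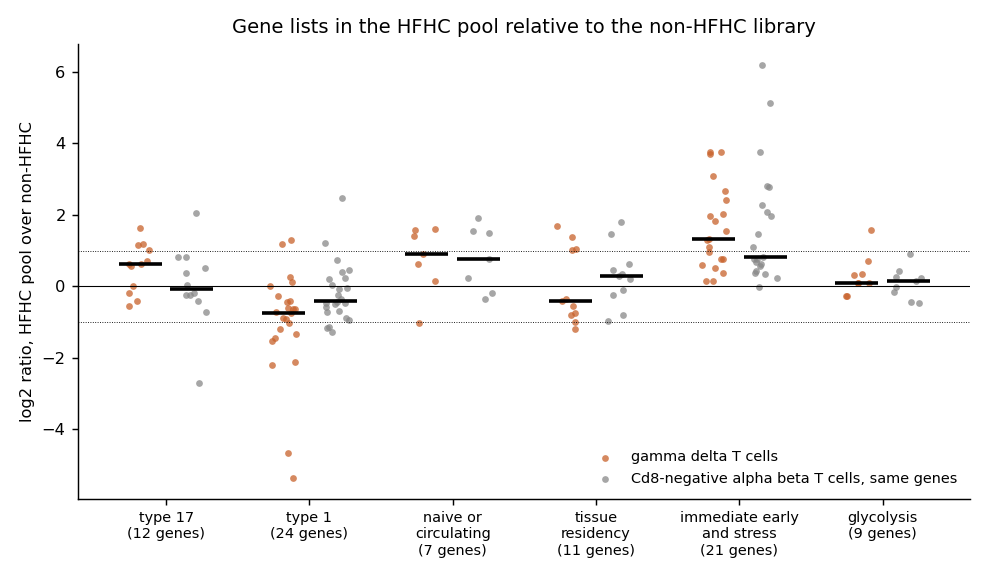
Ratio of CPM in the HFHC pool to that in the non-HFHC library on a log2 scale (y axis) for the genes of 6 lists (x axis) with at least 30 UMIs in γδ T cells; each point is 1 gene, orange in γδ T cells and grey for the same gene in αβ T cells without Cd8, bars are medians and dotted lines mark 2-fold. Type 1 genes have a median of -0.74 in γδ and -0.41 in αβ T cells, type 17 genes of 0.62 and -0.08, and immediate early and stress genes of 1.33 and 0.83.

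The genes highest in the pool were shared with other lymphocytes. Immediate early and heat shock genes, which respond fast to stimulation and stress, were higher for 13 of 21 tested and lower for none, with a median of 1.33, against 0.83 in αβ T cells without Cd8, 1.23 in those with Cd8, 1.06 in NK cells and 0.76 in B cells over the same genes. Fos stood at 82.9 and 1191 CPM (3.77, 3.14 to 4.64) and Jun at 171 and 1109 CPM (2.67, 2.19 to 3.25). Hspa1a, a heat shock chaperone, stood at 24.4 and 396 CPM (3.77, 2.75 to 5.68) and was 6.21 in αβ T cells. Their part in the other differences was not tested. The other highest genes by rank were Gm9844 (3.89), Fosb (3.71), Rps19 (3.19), Vps37b (3.18), Ier2 (3.09), Rpsa (2.87), Tnfaip3 (2.84) and Nrbp1 (2.79), and each was also higher in αβ, NK and B cells. Ltb, which encodes lymphotoxin β, stood at 53.6 and 294 CPM (2.35, 1.53 to 3.52), against 1.29 in αβ T cells.

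Among the lowest genes besides the granzymes and Tyrobp were Klri2, an NK receptor gene (-2.48, against 1.90 in αβ T cells), Safb (-2.84), Cox17 (-2.29) and Stmn1 (-2.74), which marks dividing cells. Stmn1 had 27 and 4 UMIs, 16 of the 27 in 1 member, and with more Trdc than Trac UMIs as the rule it had 33 and 30 UMIs and a ratio of -0.88, short of 2-fold. Adgrf5 (-2.67), an endothelial gene, and Pck1 (-2.21) and Mup3 (-2.14), both hepatocyte genes, were also among the lowest. Mup3 stood at 644 and 143 CPM over all members, and at 67.8 and 69.6 CPM without the cells marked as doublets. Id2, a transcription factor of innate-like lymphocytes, stood at 1858 and 754 CPM (-1.30, -1.56 to -1.04) with a similar ratio in αβ T cells (-1.40).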

How the data were processed

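Liver non-parenchymal cells were captured with the BD Rhapsody system. Per the file headers, the authors ran the BD Rhapsody WTA Analysis Pipeline on GRCm38 with GENCODE annotation. The deposited counts are UMIs of each gene in each cell, whole numbers, neither filtered nor normalized. The submitters' processing notes name Seurat. The table of the non-HFHC library was matched to its sample by elimination, and sample tags of the pool were not used here.

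Cells with 200 to 4000 genes and at most 25% mitochondrial UMIs were kept, 23346 and 19625 cells with 49509045 and 52044785 UMIs. Members' UMIs (205094 and 245217) were summed and scaled to CPM, and ratios were taken on the log2 scale after adding 1 UMI to each sum. Genes were counted and ranked with at least 30 UMIs, and the ratios of Trdv4 and Ccr7 rested on fewer. Called means a log2 ratio of 1 in size. Intervals are exact binomial (Clopper-Pearson), exact Poisson or, for ratios, conditional binomial, at 95%. Scrublet ran in scanpy 1.11.5 (scipy 1.17.1, seed 42). The computation of the ratios between libraries was tried on simulated sums, drawn without single cells and with changes larger than 2-fold. This does not check calls near 2-fold, genes carried by a few cells, or the ratios of γδ to αβ T cells. Members and 21 gene lists were chosen with earlier results of these data known. Named genes belong to the lists, to the 10 highest and 10 lowest ratios between libraries (at least 3 UMIs in each), to the 15 highest and 10 lowest between γδ and αβ T cells, or to the 10 with most UMIs per library. The alternatives were other filters, rules, scalings, thinning to 1000 UMIs and other UMI minimums. A few genes of the lists are not reported here by name.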

Additional observations from a re-analysis of the deposited data

Results flagged for a closer look

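Gzmb differed in direction between the libraries when γδ T cells were set against αβ T cells without Cd8. Its log2 ratio of γδ over αβ T cells was 2.73 in the non-HFHC library, with 1463 CPM in γδ and 221 CPM in αβ T cells, and -1.24 in the HFHC pool, with 53.0 and 134 CPM. With 1 library per group this difference was not tested.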

How the results depend on the processing

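No paired analysis was possible because each group is 1 library. Of the alternatives, the rule on Trac chosen after seeing the data (more Trdc than Trac UMIs) gave 3.27% and 3.37% of Cd3-positive cells, 0.535% of kept cells of the pool and 134 genes higher in γδ T cells. Thinning before the rule, also chosen after seeing the data, gave 2.73% in the pool. Requiring no β chain left 0.0771% and 0.0204% of kept cells and 0.499% and 0.128% of Cd3-positive cells. It gave 34 genes higher and 33 lower in the pool, 3291 higher and 20 lower in γδ T cells, 31.2% type 17 and 62.5% type 1 members in the non-HFHC library, and turned Fcer1g to 1.04. It also turned the medians of the type 17 list (-0.45) and the residency list (0.65), Ccl5 (-1.47) and Il7r (-0.45), with 18 and 4 cells left, 1 of the 4 rich in the myeloid gene Lyz2. With so few member UMIs the 1 UMI added to each sum can alone lift a gene above 2-fold, so that the 3291 are no result. With more Trdc than Trac UMIs Stmn1 was -0.88. Without Klrb1c-positive cells the shares were 0.300% and 0.224% of kept and 1.94% and 1.41% of Cd3-positive cells, with 23.4% and 44.2% type 17 members and 53.5% type 1 members in the pool. A mitochondrial limit of 10% gave 0.227% of the pool and 36 genes lower in γδ T cells. With a minimum of 10 UMIs, 621 genes were higher and 669 lower in the pool, and 605 higher in γδ T cells. Thinned to 1000 UMIs these were 50, 82 and 140, with 24 lower in γδ T cells, over fewer genes tested. Against αβ T cells with Cd8, 84 genes were higher, and with at least 10 UMIs in the members of each library, chosen after seeing the data, 47 were higher and 2 lower. Each of the following genes had a ratio in 12 to 14 of the alternatives. Over these Gzmb ranged from -5.52 to -3.97, Gzma from -6.26 to -4.31, Cd163l1 from 1.41 to 2.72 and Sox13 from 0.85 to 1.57. Blk ranged from 0.50 to 1.95, Cd69 from 0.86 to 1.52, Ly6c2 from 0.70 to 1.72 and Tyrobp from -2.62 to -0.12 (the last without a β chain). The 160 members and the 13 and 18 type 17 cells set the precision of all shares.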

Other observations

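Genes of glycolysis, lipid handling and survival differed by 2-fold between the members of the libraries about as often as all genes tested (6.49% higher and 6.7% lower). Of 9 glycolysis and glucose transport genes tested, 1 was at least 2-fold higher in the HFHC pool (Eno1, with 14 and 52 UMIs, a log2 ratio of 1.56) and none lower, with a median of 0.10. Gapdh was at 707 and 877 CPM (0.31). Of 6 lipid handling genes 1 was higher (Acsl4, 8 and 22 UMIs, 1.1) and none lower, with a median of 0.02, and of 8 apoptosis and survival genes 1 was lower (Bcl2l11, which encodes the pro-apoptotic protein BIM, 44 and 20 UMIs, -1.36). The median of those 8 was -0.62, with 6 below 0. In αβ T cells it was 0.06 over the 19 tested there, a wider set, so that these medians do not compare the same genes. Of 6 glucocorticoid-responsive genes tested, Dusp1 (1.84) and Cxcr4 (1.02) were higher and Fkbp5 (-1.90) and Txnip (-1.21) lower. No gene of the CD3 complex and its signalling differed by 2-fold, of 12 tested, with a median of -0.17. The Cd3 genes among these were part of the choice of the cells.

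Few members were dividing. Mki67 had 17 UMIs in 2 members of the non-HFHC library and 2 UMIs in 1 member of the pool, and Top2a had 23 UMIs in 3 members and 0. Genes of IL-4-producing innate-like T cells were sparse, with 12 and 15 UMIs of Zbtb16 (PLZF) and 2 and 2 of Il4, and Areg had 0 and 2 UMIs. Chil1, the gene of Chi3l1, was found in 0 of 97 members, with an exact upper bound of 3.73%, and in 0 of 63, with an upper bound of 5.69%. In Cd79a-positive B cells 2.43% and 0.566% of cells had a Chil1 UMI, so that a share of that size could not be told from 0 in so few members.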
